A study of Mus musculus with 4 samples.

Results

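Forkhead genes encode transcription factors that bind DNA through a winged-helix domain, and 8 of them with known roles in the mesenchyme, vessels and cartilage of the head are described here: Foxc1, Foxc2, Foxd1, Foxf1, Foxf2, Foxl2, Foxp1 and Foxp2. They were taken by symbol from the 44 forkhead symbols among 32285 counted genes, a choice made with earlier results of these data known. The cells come from whole mouse noses at embryonic day 14.5, profiled with the 10x Genomics 3′ droplet method in 2 control and 2 mutant libraries. The controls are titled WT and listed as C57Bl/6J in the sample labels, but the series' design text gives them as yap flox/flox;taz flox/flox, so whether the controls carry floxed alleles is not settled by the sources. The mutants, titled Sox10Cre/Yap/Taz cKO, carry the Sox10-Cre transgene Tg(Sox10-cre)1Wdr with Yapflox and Tazflox, also on C57Bl/6J. The design text gives them as yap flox/WT;taz flox/flox, by which they keep an unfloxed yap allele. Yap (Yap1) and Taz (Wwtr1) are transcriptional co-activators of the Hippo pathway that act through TEAD factors, and Sox10-Cre acts in the neural crest lineage. Endothelial cells are of another, mesodermal, origin. The comparison of the genotypes addresses what deletion of taz and of a single yap allele where Sox10-Cre acts does to cells of the developing nose.

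As background, Foxc1 and Foxc2 are close relatives that act in neural crest and paraxial mesenchyme, in the meninges, in cartilage and bone, and in vessel walls. Foxd1 marks stromal progenitors in several organs, and Foxf1 and Foxf2 are known targets of hedgehog signalling in mesenchyme next to epithelium, with Foxf2 also known for its role in pericytes and in the palate. Foxl2 is known from the eyelid mesenchyme and the ovary. Foxp1 and Foxp2 are related repressors that can pair with each other and act in many tissues, cartilage included.

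Foxc1 (ENSMUSG00000050295, chr13:31806633-31812476, plus strand, GRCm38) and Foxf2 (ENSMUSG00000038402, chr13:31625816-31631403, plus strand) lie 175.2 kb apart, and Foxq1, another forkhead gene, lies 64.84 kb before Foxf2 (chr13:31556134-31560976). Gmds, a gene of another family, lies 7.103 kb from Foxc1. Foxc2 (chr8:121116171-121118895) and Foxf1 (chr8:121084386-121088144) form a second such cluster with a gap of 28.03 kb, with Foxl1 9.045 kb beyond Foxc2. Foxd1 lies elsewhere on the chromosome of Foxc1 and Foxf2 (chr13:98354242-98359305), Foxl2 (chr9:98955288-98958543) overlaps its antisense partner Foxl2os by 0.011 kb, and Foxp1 (chr6:98925338-99522721) and Foxp2 (chr6:14901349-15441977) are long genes. The promoters of Foxd1 and Foxf2 are shown because these were the members with the largest differences between control and mutant vessel cells; each line runs 5′ to 3′ on the plus strand up to the annotated start of the gene, in GRCm38.p6 from RefSeq, and lower case throughout means that no searched motif matched.
Foxd1 promoter, chr13:98353995-98354241: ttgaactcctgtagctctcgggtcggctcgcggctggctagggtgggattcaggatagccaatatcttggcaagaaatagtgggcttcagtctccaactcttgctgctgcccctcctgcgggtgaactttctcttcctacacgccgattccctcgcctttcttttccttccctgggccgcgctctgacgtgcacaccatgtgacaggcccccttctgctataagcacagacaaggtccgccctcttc
Foxf2 promoter, chr13:31625566-31625815: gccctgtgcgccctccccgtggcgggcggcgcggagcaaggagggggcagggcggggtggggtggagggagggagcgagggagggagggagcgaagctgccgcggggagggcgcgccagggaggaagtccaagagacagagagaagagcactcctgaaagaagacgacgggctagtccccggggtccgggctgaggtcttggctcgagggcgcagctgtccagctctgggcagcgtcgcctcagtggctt
RefSeq promoters were matched for 5 of the 8 genes, 7 promoters in all. A TEAD motif (GGAATG), a forkhead motif (TGTTTAC) and a GLI motif (TGGGTGGTC) were searched on both strands of the 250 bases before each RefSeq start. RefSeq starts can differ from the gene positions given above. The Foxl2 and Foxp1 windows lie within those genes, and the Foxc1 and Foxd1 windows run past the given starts. Both promoters printed above held none of these motifs. The only match in the 7 promoters was 1 TEAD motif in the most upstream of 3 Foxp1 promoters. Of 32851 mouse promoter windows of that length, 12.6% held the TEAD motif, 3.17% the forkhead motif and 0.225% the GLI motif. A match, or its lack, describes these letters only.

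The libraries held 20170229 to 35887490 UMIs (distinct captured transcripts) in 2827 to 4846 cell barcodes, of which 2474 to 4195 per library passed the filters, 13739 in all. Median depth of the retained cells ran from 5282 UMIs in mutant 2 to 8549 in mutant 1, and 4 to 8 barcodes were shared between any pair of libraries. Marker gates gave 10089 mesenchyme cells (1909 to 3017 per library), 144 mural cells (24 to 50) and 215 endothelial cells (31 to 89). The sources do not say that replicates are separate litters, so p-values measure only the spread between these libraries. Yap1 in mesenchyme was 64.5 and 66.8 CPM (UMIs of the gene per 1000000 UMIs summed over the class in a library) in the control libraries against 55.2 and 58.0 CPM in the mutants; Wwtr1 was 139 and 160 against 140 and 150 CPM. Where the counted 3′ ends lie relative to the floxed parts is not given in the sources used here, so these levels do not check the genotypes. In endothelial cells, erythroid markers summed to 76.6 and 11.2 CPM in the controls but 2228 and 1813 CPM in the mutants. Among mesenchyme cells, the share with at least 2 UMIs of Zic1, a transcription factor of the meninges, was 3.74% and 7.75% in the controls and 1.62% and 1.86% in the mutants.

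Across cell classes, the 8 genes fell into different patterns, and no class held the highest mean of all of them. Of 10228 genes tested between classes within libraries, 27.7% differed between mural and mesenchyme cells, 51.5% between endothelial and mesenchyme cells and 30.2% between endothelial and mural cells, so single differences are common. Of the 8, 3 were higher and 2 lower in mural than in mesenchyme cells, against 14.6% and 13.1% of all genes. In endothelial against mesenchyme cells 2 were higher and 4 lower, against 25% and 26.5%. Their median log2 difference was 0.44 for mural and -0.89 for endothelial cells, beside -0.03 and -0.03 over all genes.

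**Figure D1:**
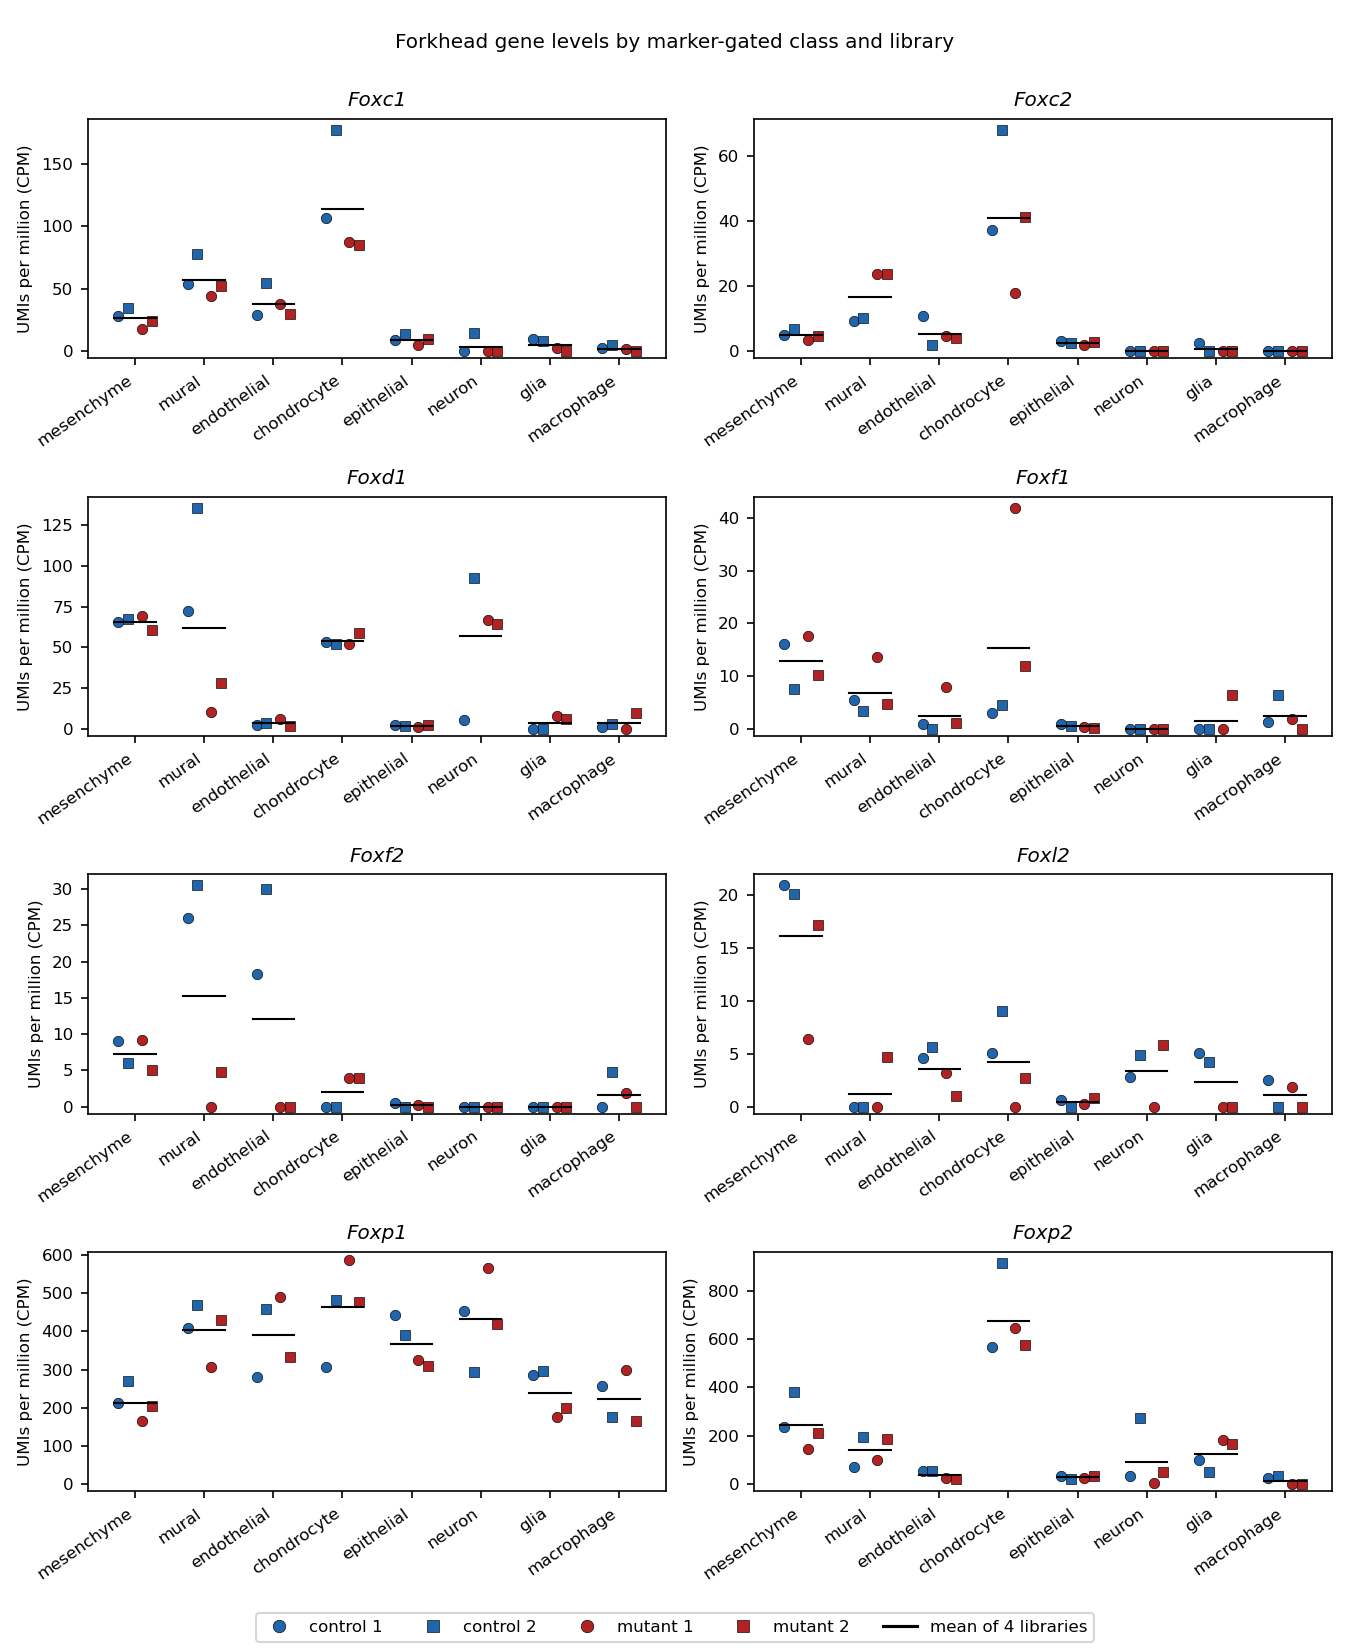
Level of each of the 8 forkhead genes (CPM, linear axes that differ between panels) in each cell class with at least 20 cells in every library; points are the 4 libraries, blue for control, red for mutant, circles for replicate 1 and squares for replicate 2, and bars are their mean. Foxd1 is low in endothelial cells (2.08 to 6.30 CPM) and higher in mesenchyme (60.6 to 69.4 CPM), while Foxc1, Foxc2, Foxp1 and Foxp2 have their highest means in chondrocytes.

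Foxc1, a regulator of cranial mesenchyme and of vessel walls, was at 28.4 and 34.8 CPM in control mesenchyme and 18.3 and 24.7 CPM in mutant mesenchyme. In mural cells, the contractile cells that wrap vessels, it was at 53.9, 78.0, 44.3 and 52.0 CPM in control 1, control 2, mutant 1 and mutant 2. Every mural value was above every mesenchyme value, and the difference was 1.15 ± 0.19 on the log2 scale (SE; edgeR adjusted p = 0.00023). Endothelial cells, at 29.2, 54.3, 37.8 and 30.2 CPM in the same order of libraries, overlapped both; they were above mesenchyme by 0.56 ± 0.17 (edgeR adjusted p = 0.011), a call lost without mutant 1 and with no filter on low counts, where the highest adjusted p was 0.066. Chondrocytes held the highest Foxc1 level (85.3 to 177 CPM), separate from the mural values below them, and mesenchyme in turn did not overlap epithelial cells (5.22 to 14 CPM). Macrophages, which should lack the gene, were at 0 to 4.82 CPM.

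Foxc2, the close relative of Foxc1 and known also from lymphatic and venous valves, followed a like order. It was at 3.42 to 6.78 CPM in mesenchyme and 9.29 to 23.8 CPM in mural cells, where it rests on only 5, 3, 7 and 10 UMIs in control 1, control 2, mutant 1 and mutant 2. No library's mural value fell among the mesenchyme values. The mural excess of 1.80 ± 0.49 passed the test (edgeR adjusted p = 0.012) but not without mutant 1 (adjusted p = 0.083). Endothelial cells, at 1.87 to 10.9 CPM, overlapped mesenchyme, and the difference of 0.39 ± 0.50 did not pass. In chondrocytes Foxc2 reached 18 to 68 CPM, which overlapped the mural range, and in macrophages and neurons it was at 0.

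Foxd1, a stromal regulator, had a narrow range in mesenchyme (65.7, 67.1, 69.4 and 60.6 CPM in control 1, control 2, mutant 1 and mutant 2) and in chondrocytes (51.9 to 58.6 CPM). Endothelial cells were at 2.08 to 6.30 CPM, far below and without overlap. The endothelial deficit was 4.16 ± 0.49 log2 units against mesenchyme (edgeR, log2 -4.16, adjusted p = 2.4e-06) and -4.07 ± 0.61 against mural cells (adjusted p = 7.6e-05). Mural cells spanned 10.2 to 136 CPM and neurons 5.65 to 92.7 CPM (20 to 39 neurons a library), and the mural mean did not differ from mesenchyme by the test (-0.09 ± 0.31). The split of the mural values is taken up with the mutant comparison. Epithelial cells, macrophages and glia stayed at 9.50 CPM or less.

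Foxf1, which answers to hedgehog signals in mesenchyme, was at 16.2, 7.57, 17.6 and 10.2 CPM in mesenchyme of control 1, control 2, mutant 1 and mutant 2, so that control 1 and mutant 1 stood above control 2 and mutant 2. In endothelial cells it was at 0.912, 0, 7.88 and 1.04 CPM, lower by the test (-2.51 ± 0.47, edgeR adjusted p = 0.00031). The mural difference from mesenchyme, -0.96 ± 0.47, did not pass. Chondrocytes ranged from 3.02 to 41.9 CPM, with the highest in mutant 1.

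Foxf2, its relative of palate mesenchyme and pericytes, was at 9.02, 6.00, 9.13 and 5.06 CPM in mesenchyme. In mural cells it stood at 26.0 and 30.5 CPM in the controls and at 0 and 4.73 CPM in the mutants, and in endothelial cells at 18.2 and 30.0 CPM in the control libraries and 0 in both mutants. The vessel classes were above mesenchyme in the controls and below it in the mutants. Across the 4 libraries, neither vessel class therefore differed from mesenchyme by the test (0.98 ± 0.73 for mural and 0.50 ± 0.64 for endothelial cells; both turn negative with DESeq2, at -0.05 and -0.77). Foxf2 was at 0 in glia and neurons of every library.

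Foxl2, a factor of eyelid mesenchyme, had its highest mean in mesenchyme. Its mesenchyme values were 20.9 and 20.1 CPM in the control libraries and 6.43 and 17.2 CPM in the mutants. In mural cells it was at 0 in 3 of the 4 libraries and at 4.73 CPM in mutant 2, from 2 UMIs. It was lower in mural (-3.63 ± 0.71, edgeR adjusted p = 0.0011) and in endothelial cells (-2.18 ± 0.42, adjusted p = 0.00042) than in mesenchyme. The antisense Foxl2os, at 0.816 to 2.57 CPM in mesenchyme, overlaps it at the 5′ end; how the counting treated strand is not given in the sources used here, so a small part of either count may belong to the other.

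Foxp1, a broadly expressed repressor, was at 213, 271, 167 and 204 CPM in mesenchyme, its lowest mean among the 8 classes that held 20 cells or more per library; osteoblasts, with 10 to 53 cells a library, were lower still at 98.4 to 151 CPM. Mural cells (409, 468, 306 and 430 CPM) and endothelial cells (281, 459, 490 and 334 CPM) were both higher in every library. The differences were 0.99 ± 0.16 (edgeR adjusted p = 0.00018) and 0.95 ± 0.15 (adjusted p = 5.3e-05). Its level in chondrocytes, neurons, mural, endothelial and epithelial cells overlapped from one class to the next, and epithelial cells (309 to 443 CPM) were separate from glia (177 to 297 CPM). Macrophages also held it at 165 to 299 CPM.

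Foxp2, the partner of Foxp1, was lower in the vessel classes. It was at 238, 379, 146 and 210 CPM in mesenchyme, 72.5, 197, 102 and 187 CPM in mural cells and 54.7, 54.3, 25.2 and 22.9 CPM in endothelial cells of control 1, control 2, mutant 1 and mutant 2. Endothelial values were below all mesenchyme values, by -2.49 ± 0.24 (edgeR adjusted p = 2.5e-07) and below mural cells by -1.74 ± 0.30 (adjusted p = 0.00026). The mural deficit of -0.75 ± 0.22 (adjusted p = 0.020) rested on both controls: leaving out either, or using DESeq2 (adjusted p = 0.103), lost it. In mutant 2, 1 mural cell supplied 38 of the 79 Foxp2 UMIs. Chondrocytes held the highest level, 568 to 914 CPM, without overlap with mesenchyme. Macrophages of the controls were at 24.7 and 35.3 CPM and those of the mutants at 0, while mesenchymal matrix genes in macrophages summed to 402 and 470 CPM in the control libraries and 109 and 204 CPM in mutants; the part of free RNA in the Foxp2 values was not tested.

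Detection of the 8 genes was then counted within single mesenchyme cells. After each cell was thinned to 2000 UMIs (9903 cells deep enough), 54.1% of mesenchyme cells showed none of the 8, 30.5% showed 1, 11.6% showed 2, 3.11% showed 3 and 0.626% showed 4. These shares depend on depth: thinned to 4000 UMIs (8674 cells), 37.9% showed none, 34.7% showed 1, 17.7% showed 2, 7.32% showed 3 and 1.75% showed 4. Foxp1 was detected in 27.8%, 29.8%, 21.4% and 24.3% of thinned cells of control 1, control 2, mutant 1 and mutant 2, and in 42.9% to 53.9% of unthinned ones. Foxp2 was detected in 21.5%, 26.3%, 13.1% and 16.6%. Both mutants were below both controls for each of these genes, an order whose share over all genes was not counted. Foxd1 was detected in 8.33% to 10.2%, Foxc1 in 3.21% to 5.45%, Foxl2 in 1.24% to 4.31%, Foxf1 in 1.66% to 3.00%, Foxf2 in 0.948% to 1.83% and Foxc2 in 0.734% to 1.08%. In macrophages thinned alike, Foxd1 was in 0% to 1.89% and Foxp2 in 0% to 3.77%, and Foxc1 was in none (a count of 0 allows a share of 3.80% to 6.82% per library, counting error only); median depth before thinning was 7414 to 10396 UMIs in macrophages and 5114 to 8304 in mesenchyme. Foxp1, in 20.8% to 41.7% of thinned macrophages, is expressed there too, so macrophages give no background for it.

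Cells with at least 2 UMIs of each of 8 patterning genes that are not forkhead genes were then set against the other mesenchyme cells of the same libraries. These gates use no member, and each marker was fitted over 14736 to 14995 genes. The share of genes called was 3.98% for Alx4, 7.25% for Shox2, 12.1% for Pax9, 10.1% for Osr1, 11.4% for Osr2, 20% for Pou3f4, 13.6% for Agtr2 and 13.3% for Zic1. Choosing cells by UMIs of a marker favours deeper cells, and suspected doublets were not removed for these gates.

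**Figure D2:**
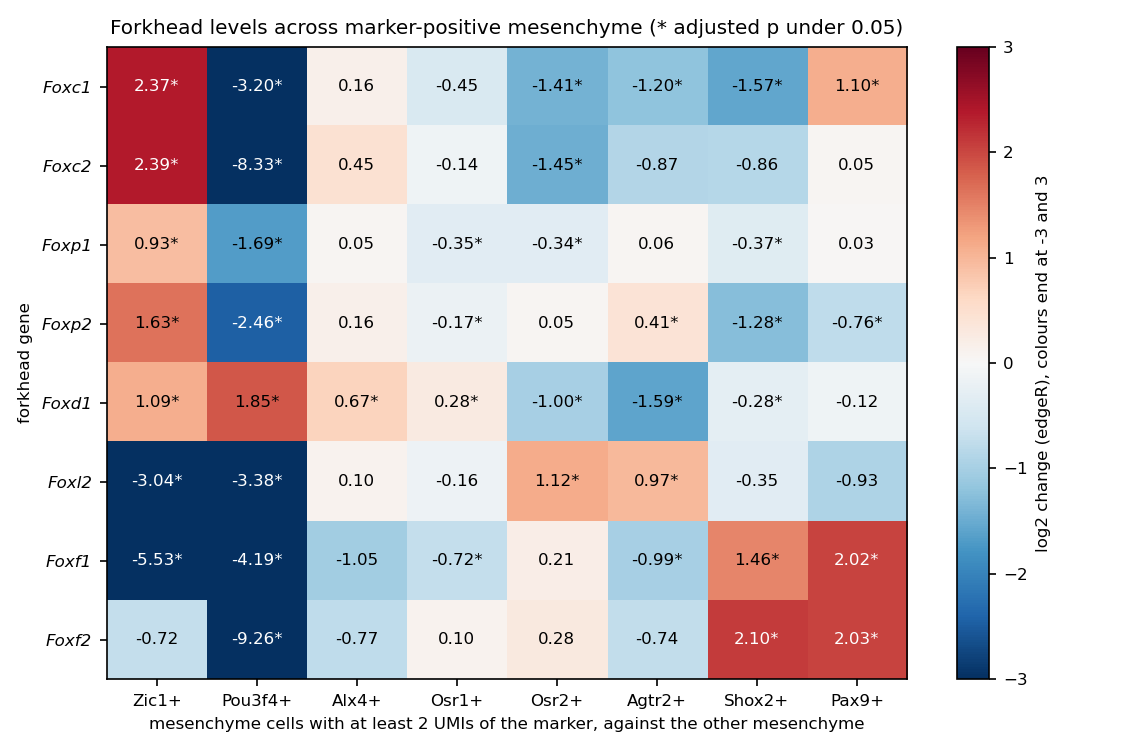
Log2 difference of each forkhead gene (rows) between mesenchyme cells with at least 2 UMIs of a patterning gene (columns) and the other mesenchyme cells of the same libraries, with the value printed in each cell of the map and calls at an adjusted p under 0.05 marked by a star; the values of Foxc2 and Foxf2 with Pou3f4, where no UMI was found, depend on the fit and have no bound. Foxc1 and Foxc2 are highest with Zic1 (2.37 and 2.39), Foxf1 and Foxf2 with Pax9 and Shox2, Foxl2 with Osr2 and Agtr2, and Foxd1 with Pou3f4 (1.85).

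Zic1-positive mesenchyme, 36 to 148 cells a library, held 5 of the 8 genes at a higher level and 2 at a lower one, beside 7.34% of all genes higher and 5.95% lower. Foxc1 was at 118, 114, 56.7 and 156 CPM in the Zic1-positive cells of control 1, control 2, mutant 1 and mutant 2, and at 17.3 to 24.3 CPM in the others. The positive cells were higher in every library, by 2.37 ± 0.16 (edgeR adjusted p = 2e-06). Foxc2 was at 10.5 to 31.5 CPM against 3.24 to 4.93 CPM (2.39 ± 0.29), Foxp2 at 463 to 818 CPM (1.63 ± 0.23), Foxd1 at 56.7 to 170 CPM against 55.6 to 69.8 CPM (1.09 ± 0.21, higher in 3 of 4 libraries; mutant 1 had 56.7 CPM in the positive and 69.8 CPM in the other cells) and Foxp1 at 319 to 490 CPM (0.93 ± 0.11). Of the list of 10 meningeal genes, 9 were higher in these cells and none lower, with a median log2 difference of 3.83 beside -0.05 over all genes; Zic1 itself, which set the gate, is one of the 9. Foxf1 had 1 UMI in the Zic1-positive cells against 975 in the others, a ratio of other to positive of 55.2 (95% counting interval 9.89 to 2182), and Foxl2 had 9 against 1147 (ratio 7.22, 3.79 to 15.8). Foxf2 did not pass (-0.72 ± 0.45).

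In Pou3f4-positive mesenchyme, 20 to 98 cells a library, 1 gene was higher and 7 were lower, beside 7.32% and 12.7% of all genes. Foxd1 was at 222, 219, 207 and 249 CPM in these cells of control 1, control 2, mutant 1 and mutant 2, an excess of 1.85 ± 0.11 with no overlap with the other cells. Foxc2 and Foxf2 had no UMI in them, against 349 and 545 in the other mesenchyme, so that they were at least 3.83-fold and 5.98-fold lower (3 counts over the pooled group as the limit). Foxc1 had 6 UMIs (5 of them in control 2), Foxl2 3 and Foxf1 2, which is lower by ratios of 10.3 (4.72 to 28.1), 12.6 (4.32 to 61.4) and 16.0 (4.42 to 132). Foxp1 and Foxp2 fell by 1.69 and 2.46 on the log2 scale.

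Foxf1 and Foxf2 moved together in 2 gates. Among Pax9-positive cells, Pax9 being a regulator of palate and tooth mesenchyme, Foxf1 was at 53.8, 16.9, 60.0 and 42.7 CPM and Foxf2 at 30.0, 16.9, 36.7 and 14.6 CPM in control 1, control 2, mutant 1 and mutant 2. Their excess over the other cells was 2.02 ± 0.16 and 2.03 ± 0.21 (edgeR adjusted p = 1.1e-07 and 3.6e-06). With Shox2, a factor of the anterior palate among other sites, Foxf2 was higher by 2.10 ± 0.16 and Foxf1 by 1.46 ± 0.14. The gates differed in the sign of Foxc1, which was higher with Pax9 (1.10 ± 0.22) and lower with Shox2 (-1.57 ± 0.20), each past the test; the difference between the gates was not itself tested. Foxp2 was lower with both, by -0.76 ± 0.14 and -1.28 ± 0.09. Shox2-positive cells were also lower in Foxp1 (-0.37 ± 0.08) and, narrowly, Foxd1 (-0.28 ± 0.08, edgeR adjusted p = 0.049).

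Foxl2 was higher in Osr2-positive (1.12 ± 0.10) and Agtr2-positive mesenchyme (0.97 ± 0.15), Osr2 being another palate regulator and Agtr2 the type 2 angiotensin receptor. In Osr2-positive cells it was at 34.9, 32.5, 11.7 and 34.2 CPM in control 1, control 2, mutant 1 and mutant 2, so mutant 1 stood below the others there as it did in the whole mesenchyme. Foxc1 and Foxd1 were lower in both gates: with Osr2 by -1.41 ± 0.18 and -1.00 ± 0.12, with Agtr2 by -1.20 ± 0.16 and -1.59 ± 0.18. Foxp2 was higher with Agtr2 (0.41 ± 0.09) and did not pass with Osr2 (0.05 ± 0.05). Osr2-positive cells were also lower in Foxc2 (-1.45 ± 0.37) and Foxp1 (-0.34 ± 0.05), and Agtr2-positive cells in Foxf1 (-0.99 ± 0.30). In Alx4-positive cells Foxd1 alone passed (0.67 ± 0.11, edgeR adjusted p = 0.0011). In Osr1-positive cells 4 of the 8 passed, with small values: Foxd1 0.28 ± 0.08, which turned to -0.07 with cells of 1 UMI included, Foxp1 -0.35 ± 0.05, Foxp2 -0.17 ± 0.05 and Foxf1 -0.72 ± 0.17.

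Pairs of genes were then counted in the same thinned cell. These counts are descriptions over cells, which are not replicates, and all pairs share the depth of their cells. Foxf1 and Foxf2 were found together in 24 cells, 7.26 times the number that independent detection gives, with library ratios of 8.80, 5.25, 5.59 and 4.14 in control 1, control 2, mutant 1 and mutant 2. Foxc1 and Foxc2 shared 20 cells, a ratio of 5.37 with a range over libraries of 1.83 to 8.26. Foxd1 and Foxl2 shared 5 cells where 29.8 were to be counted under independence (ratio 0.168), and Foxf1 and Foxl2 shared none where 7.42 were. So each pair of close relatives was found together more often than independent detection gives, and Foxl2 was scarcely found with Foxd1 or Foxf1. Foxp1 and Foxp2 shared 904 cells (ratio 1.86, range over libraries 1.66 to 2.15), and Foxl2 and Foxp2 shared 134 (ratio 2.18, 1.86 to 3.68). Foxp2 was detected in 41.7% of Foxl2-positive and 18.3% of Foxl2-negative cells.

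**Figure D3:**
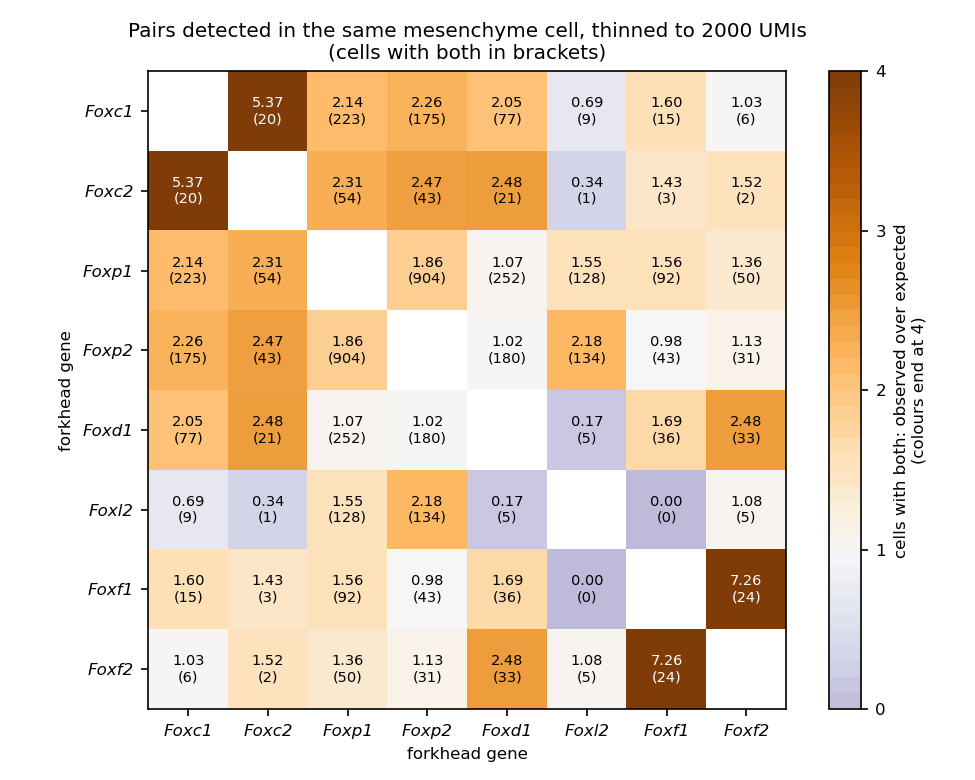
Observed over expected number of mesenchyme cells with a UMI of both genes of a pair, each cell thinned to 2000 UMIs and the 4 libraries pooled; a value of 1 is what independent detection gives. Foxf1 with Foxf2 (7.26) and Foxc1 with Foxc2 (5.37) are the highest squares, and Foxl2 with Foxf1 (0) and Foxd1 (0.168) the lowest.

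Between mutant and control mesenchyme, none of the 8 genes passed the test, and none of the 16099 genes tested did (0% called by edgeR; 1190 had an unadjusted p under 0.05, and DESeq2 called 48). Nevertheless 7 of the 8 had a negative value, with a median of -0.50 beside 0.004 over all genes. Foxc1, at 28.4 and 34.8 CPM in the controls against 18.3 and 24.7 in the mutants, differed by -0.59 ± 0.17 (edgeR adjusted p = 0.59). Foxp2 differed by -0.83 ± 0.24 (adjusted p = 0.59), from 238 and 379 CPM to 146 and 210 CPM. Foxp1 differed by -0.42 ± 0.15 (adjusted p = 0.63), from 213 and 271 to 167 and 204 CPM. For these 3 genes each mutant library was below each control library, by margins smaller than the distance between the controls.

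The other members varied more between replicates, rested on fewer UMIs or overlapped between genotypes. Foxl2 differed by -0.85 ± 0.37, a value set mainly by mutant 1 (6.43 CPM, against 17.2 CPM in mutant 2 and 20.9 and 20.1 CPM in the controls). Foxc2 was at 4.97 and 6.78 CPM in the control libraries and 3.42 and 4.60 CPM in the mutants (-0.58 ± 0.25). For Foxl2 and Foxc2, too, both mutants were below both controls. How many of all tested genes separate the genotypes in this way was not counted, so this order is no result about these members. Foxd1 (-0.07 ± 0.10), Foxf1 (0.17 ± 0.37) and Foxf2 (-0.13 ± 0.31) overlapped between genotypes. The 4 libraries limit these statements: an adjusted p that misses the threshold does not show that levels were alike. In all retained cells the 8 genes had values of the same signs, from -0.82 to 0.30, and none passed among 18080 genes (0% called). Mesenchyme cells are 10089 of the 13739 retained cells, so these values largely repeat those of mesenchyme.

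Values of meningeal genes went the same way as several of these. In mesenchyme, 8 of 10 genes of the meningeal list had a negative value (median -1.13) and none passed; Zic1 was at 21.8 and 42.4 CPM in the control libraries and 7.86 and 13.7 CPM in the mutants. When every cell with a Zic1 UMI was left out, an alternative chosen after the data were seen, Foxc1 differed by -0.29 and Foxc2 by -0.35, while Foxp1 (-0.41) and Foxp2 (-0.89) kept their size. That filter removed 7.25% and 13.1% of control and 3.91% and 4.91% of mutant cells. Zic1-positive cells were higher in Foxc1 and Foxc2, as given above, so the smaller values of these genes follow in part from the filter. The part of Zic1 cells in the mutant values was not tested. Sums over cells such as these do not tell fewer cells of a kind from less RNA per cell, and which of these applied was not tested. Foxp2 passed the test in 3 of 12 alternatives (no filter, the replicate block with adjusted p = 0.011, and without control 1) and Foxc1 in 2.

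**Figure D4:**
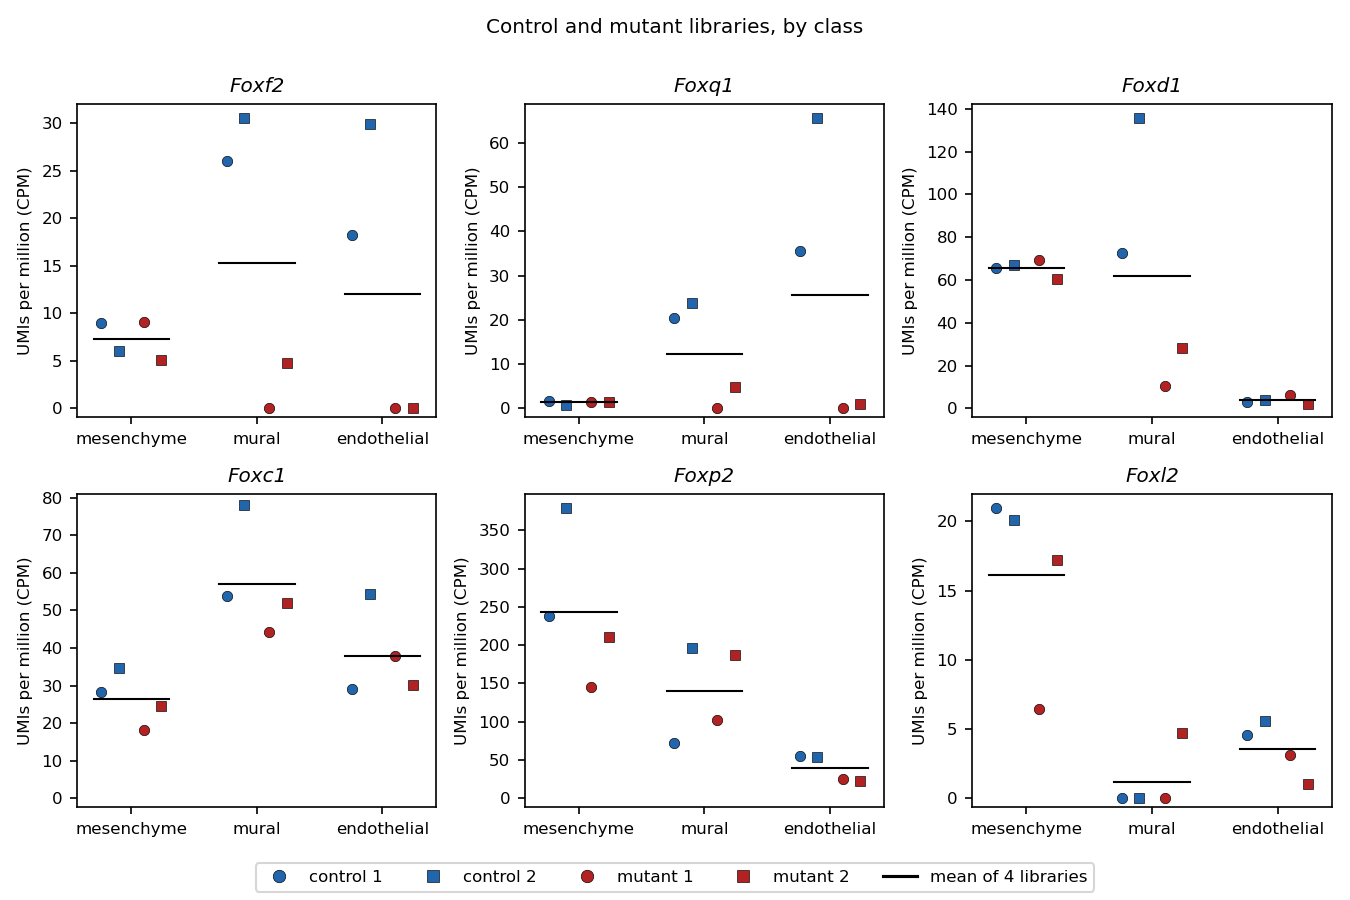
Level (CPM, linear axes that differ between panels) of Foxf2, Foxq1, Foxd1, Foxc1, Foxp2 and Foxl2, a panel each, in mesenchyme, mural and endothelial cells of the 2 control (blue) and 2 mutant (red) libraries; each point is a library and bars are the mean of 4. In mural cells Foxd1 is at 72.5 and 136 CPM in the control libraries and 10.2 and 28.4 CPM in the mutants, and in endothelial cells Foxf2 is at 0 in both mutants.

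In mural cells, Foxd1 was at 72.5 and 136 CPM in the control libraries and 10.2 and 28.4 CPM in the mutants. These values did not overlap, but how many of all tested genes separate the genotypes in this way was not counted. The difference of -2.26 ± 0.48 missed the threshold over 5848 genes (edgeR adjusted p = 0.072; 21 genes, 0.359%, were called). Foxd1 was found in 22 of 50 and 17 of 27 control cells and in 2 of 24 and 2 of 43 mutant cells. A single cell of mutant 2 supplied 11 of that library's 12 UMIs. In UMIs pooled by genotype there were 79 against 15, a ratio of control to mutant of 4.53 (95% counting interval 2.59 to 8.48, which covers counting error only). Foxd1 passed in 6 of 12 alternatives, among them cells with 1 more mural marker (-4.61, adjusted p = 0.0036) and cells with at least 1000 genes (-4.01, adjusted p = 0.0091), and the adjusted p ranged from 1.6e-05 to 0.70 over all 12. Leaving out either mutant or control 1 gave a call; leaving out control 2 did not.

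Foxf2 followed the same direction in mural cells on fewer counts. It had 14 and 9 UMIs in 9 and 6 control cells and 0 and 2 UMIs in 0 and 2 mutant cells; the pooled ratio was 9.89 (2.44 to 86.6). It was too low for the main test. Foxc1 (-0.40 ± 0.35), Foxp1 (-0.24 ± 0.21) and Foxp2 (0.23 ± 0.42, which turned to -0.95 with 1 more marker) did not pass, and with Foxd1 they are the 4 of 8 members that could be tested there. Foxc2 ran the other way, with 8 control and 17 mutant UMIs (ratio 0.405, 0.151 to 0.990). Foxl2 and Foxf1 held 2 and 10 mural UMIs over the 4 libraries, too few to compare.

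Other markers varied with the mural values of Foxd1 and Foxf2. Zic1 was at 65.0 and 125 CPM in the control mural cells and 6.81 and 30.7 CPM in the mutant ones, and was found in 34 of 77 control and 8 of 67 mutant cells. A list of 8 glial markers summed to 119 and 241 CPM in the control libraries and 54.5 and 44.9 CPM in the mutants. Without the mural cells that held a Zic1 UMI, an alternative chosen after the data were seen, the fitted Foxd1 difference was -5.47 (edgeR adjusted p = 0.076), which did not pass and, with so few mutant UMIs, has no bound. The part of Zic1 cells and of glial markers in the Foxd1 and Foxf2 values was not tested. The test of whether the mutant difference itself differs between mural and mesenchyme cells gave -2.14 ± 0.46 for Foxd1 (edgeR adjusted p = 0.087; 11 of 10228 genes, 0.108%, were called) and -3.10 ± 1.04 for Foxf2 (adjusted p = 0.36). Neither passed.

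In endothelial cells, Foxf2 was found only in controls, and there in very few cells. Control 1 had 20 UMIs in 2 of 61 cells, control 2 had 16 UMIs in 4 of 31 cells, and the mutants had none in 34 and 89 cells, which allows a level of up to 1.88 CPM over both mutants. On pooled counts, 36 against 0, it was at least 11.7-fold higher in the controls; both limits treat UMIs as independent and cover counting error only, and a single cell like the 3 described next would exceed them. In the test, Foxf2 missed the threshold (edgeR adjusted p = 0.057; 9 of 8293 genes, 0.109%, were called); the fitted fold has no bound. It passed in 7 of 13 alternatives, with adjusted p from 2.7e-08 to 1, and the adjusted p was 1 without mutant 1 and 0.87 without mutant 2. Over both controls, 3 cells held 32 of the 36 UMIs, at 12, 8 and 12 each, and these cells were among the deep ones, with 33265, 27336 and 60912 UMIs in all.

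Most of these cells also held a gene of brain-type vessels. Of the 6 endothelial cells with Foxf2, 5 also held Slc38a5, an amino acid transporter of brain-type capillaries, and 35 of the 36 Foxf2 UMIs were in cells with Slc38a5. Slc38a5 itself was found in 7 of 92 control and 0 of 123 mutant endothelial cells. Foxq1, the forkhead neighbour of Foxf2 and a known factor of brain endothelium, had 39 and 35 UMIs in the control libraries and 0 and 1 in the mutants, with 74 of the 75 UMIs in the 7 cells with Slc38a5. It was the only other forkhead gene called in endothelial cells (-5.97 ± 0.74, edgeR adjusted p = 0.0067; pooled ratio 72.4, 12.6 to 2899), a call lost without mutant 1, without mutant 2 and with DESeq2 (adjusted p = 0.10). Of the list of 10 genes of brain-type vessels, 9 were tested and 4 were called lower in mutants, beside 0.0603% of all genes: Slc38a5, Spock2, Slc7a5 and Apcdd1. Without the 7 cells with Slc38a5, an alternative chosen after the data were seen, Foxf2, Foxq1 and Spock2 were too low to test, Slc7a5 differed by -0.50 (edgeR adjusted p = 0.88) and Apcdd1 by -0.27 (adjusted p = 0.97). That filter removes control cells only, by a gene that was itself called, so the smaller values follow in part from the filter and test nothing about the remaining cells. Nearly all endothelial UMIs of Foxf2 and Foxq1 thus came from 7 control cells, and how many such cells each nose held was not measured.

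The other endothelial members differed less. Foxp2 was at 54.7 and 54.3 CPM in the control libraries and 25.2 and 22.9 CPM in the mutants. The genotypes did not overlap, but the share of all tested genes with such an order was not counted. Foxp2 was found in 17 of 61, 11 of 31, 8 of 34 and 18 of 89 cells of control 1, control 2, mutant 1 and mutant 2. Its difference of -1.21 ± 0.28 did not pass (edgeR adjusted p = 0.26), and it was -1.30 without the cells with Slc38a5. The pooled ratio was 2.29 (1.55 to 3.45), an interval that treats UMIs as independent and covers counting error only. A single cell held 18 of 60, 12 of 29, 7 of 16 and 3 of 22 Foxp2 UMIs in the same order of libraries. Foxp2 in macrophages was also lower in the mutants, as given above, and the part of free RNA in the endothelial values was not tested. Foxc1 (-0.25 ± 0.35, and 0.03 without the cells with Slc38a5) and Foxp1 (0.14 ± 0.25) did not pass. The 4 members that could be tested had a median of -0.73 beside 0.01 over all genes. Foxf2 entered that test through its control counts alone, so this median is no result about the members. Mutant 2 endothelial cells also held more mesenchymal matrix RNA (824 CPM, against 274 to 324 CPM in the others), and both mutants more erythroid RNA, as given above. With cells holding an erythroid marker left out, Foxf2 had an adjusted p of 0.010 and Foxp2 differed by -1.03.

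The direct test of whether the mutant difference in endothelial cells differed from that in mesenchyme called 14 of 10228 genes (0.137%), and none of the 8 members. Foxf2 was nearest (edgeR adjusted p = 0.064), followed by Foxp1 (0.60 ± 0.24, adjusted p = 0.74). Foxq1 was called (-6.43 ± 1.19, adjusted p = 0.042).

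Of the 36 other forkhead genes, 16 were high enough to test in mesenchyme, 5 in mural and 9 in endothelial cells, and apart from Foxq1 none passed between mutant and control. Foxs1, a forkhead gene of pericytes that the mural gate did not use, was at 78.1, 91.6, 61.3 and 49.7 CPM in mural cells. It exceeded mesenchyme by 7.47 ± 0.40 (edgeR adjusted p = 3.1e-08). Mural cells still held much mesenchyme RNA: the mesenchyme markers summed to 2411 to 3143 CPM there, beside 4188 to 4800 CPM in mesenchyme. The part of mesenchyme RNA in the mural values was not tested. Foxo1, a factor of vessel quiescence, was at 106 to 152 CPM in endothelial cells, above mesenchyme by 2.49 ± 0.13 (adjusted p = 2.8e-10). Foxn3 was at 217 to 253 CPM in mesenchyme and lower in mural cells (-0.71 ± 0.14, adjusted p = 0.0013). Foxq1 was above mesenchyme in both vessel classes (2.88 ± 1.01, edgeR adjusted p = 0.043, in mural and 3.70 ± 0.80, adjusted p = 0.0010, in endothelial cells), a difference carried mainly by the controls. Mural Foxq1 was at 20.4 and 23.7 CPM in the control libraries against 0 and 4.73 CPM in the mutants, and mutant endothelial cells, at 0 and 1.04 CPM, were not above mutant mesenchyme (1.38 and 1.49 CPM).

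Hedgehog pathway genes, the upstream signal of Foxf1 and Foxf2, were tested as a list of 10. In mesenchyme, 8 of the 10 had a positive mutant value and none passed (median 0.14); Gli1 was at 12 and 11.7 CPM in the control libraries and 13.5 and 12.5 CPM in the mutants, and Ptch1 at 138 and 130 against 166 and 140 CPM. Against mesenchyme, 7 of the 8 testable genes were lower in mural cells and all 8 in endothelial cells, beside 13.1% and 26.5% of all genes. Their medians were -1.22 and -3.21. Ptch1, the receptor, was lower by -1.70 ± 0.16 in mural cells and -1.19 ± 0.12 in endothelial cells. In Pax9-positive and Shox2-positive mesenchyme, the gates in which Foxf1 and Foxf2 were higher, 2 of the 10 passed in each: 0 were higher and 2 lower with Pax9 (Gli2 and Cdon), beside 4.97% and 7.17% of all genes, and 2 higher and 0 lower with Shox2 (Hhip and Ptch1), beside 3.62% each way.

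A list of 10 genes linked to Foxc and Foxf factors held Cxcl12, Cxcr4, Dll4, Hey2, Flt1 and Pdgfrb, among others. In mural against mesenchyme cells, 4 of 8 testable genes were higher and 2 lower, beside 14.6% and 13.1% of all genes. In endothelial against mesenchyme cells, 3 were higher and 5 lower, beside 25% and 26.5%. Pdgfrb, the receptor that marks pericytes, was higher in mural cells by 2.38 ± 0.12, and Cxcl12, a chemokine, lower by -1.09 ± 0.28. Between mutant and control none of this list passed in any of the 3 classes. Of 6 mesenchymal matrix genes none passed between genotypes either, with medians of -0.10 in mesenchyme, 0.12 in mural and 0.48 in endothelial cells. The brain-type vessel list had none called in mesenchyme or mural cells.

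By likeness over 8 classes in 4 libraries (32 values of log2(CPM + 10), which share libraries and depth), searched over 10523 genes, the neighbour Gmds was the gene most like Foxc1 (Pearson r = 0.956), ahead of Ccn2 (0.928), a matrix protein and well-known Yap target, and Crtap (0.896). Foxc2 was most like Fmod (0.921), then Foxc1 (0.868) and Ccn2 (0.859). Gmds was at 148 to 190 CPM in mesenchyme, and the pair lies side by side as given above. Foxd1 was most like Tbx15 (0.900), Lrrc17 and Cped1, and Foxp2 most like Thbs2 (0.921), Aebp1 and P3h1. The remaining genes had weaker matches: Eln for Foxf1 (0.740), Ccdc141 for Foxf2 (0.751), Pax1 for Foxl2 (0.768) and Fry for Foxp1 (0.739). With a pseudocount of 1 CPM in place of 10, Ccn2 was no longer among the 3 genes most like Foxc1 or Foxc2, nor Tbx15 among those for Foxd1. None of the 3 genes for Foxl2 and 1 of 3 for each of Foxf1, Foxf2 and Foxp2 stayed, while Gmds and Fmod remained the genes most like Foxc1 and Foxc2.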

How the data were processed

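Single-cell RNA libraries of 2 control and 2 mutant whole embryonic noses were used. Per the file headers, the deposited matrices hold UMI counts (distinct captured transcripts) per gene and cell barcode, made with Cell Ranger 8.0.1; the submitters' processing notes name Cell Ranger 4, Seurat 4.3.0 and mm10. Those counts were used as deposited, with no correction for free RNA or doublets.

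Retained cells had 500 or more genes and no more than 10% mitochondrial UMIs, and barcodes are cells as the authors' files call them. A cell entered a class with at least 4 of its markers (mural 5) where it met no other class; mesenchyme took cells with at least 3 of its markers and fewer than 4 of every other list. UMIs were summed per library and class, expressed as CPM, and compared by the quasi-likelihood test of edgeR 4.0.16 (TMM scaling after filterByExpr; Benjamini-Hochberg over all genes tested, threshold 0.05), with the library as a block between classes; the scripts were tested on simulated data. DESeq2 1.42.0, other filters, scalings, gates and left-out libraries were alternatives. Python 3.11.15, scanpy 1.11.5 and R 4.3.3 were used. Doublets were removed only in an alternative, since automatic calling marked 0 to 3 cells a library. Thinning drew 2000 UMIs per cell.

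All 8 members were named in each comparison; of the listed gene sets at most 5 called genes, by p. The members, lists and rules were chosen with earlier results of these data known. Same-numbered libraries did not deviate together (correlations over genes of -0.05 to 0.02 in 4 cell sets), so numbers were not taken as pairs. Positions are GRCm38, GENCODE M21; promoters are from RefSeq. Cells that met no class or several classes entered no class test.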

Additional observations from a re-analysis of the deposited data

Results flagged for a closer look

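Genes for which the mutant difference in endothelial cells differed from that in mesenchyme, by the direct test, include 1 forkhead gene and 3 genes of brain-type vessels among those named here. For Foxq1 the endothelial value was below the mesenchyme value by -6.43 ± 1.19 log2 units (edgeR adjusted p = 0.042), for Spock2, a proteoglycan, by -4.73 ± 0.64 (adjusted p = 0.0037), for Apcdd1, a Wnt inhibitor, by -3.32 ± 0.33 (adjusted p = 0.00017) and for Slc7a5, an amino acid transporter, by -2.49 ± 0.37 (adjusted p = 0.0073). In mesenchyme Spock2 was at 9.25 and 7.36 CPM in the control libraries and 12.1 and 11.6 CPM in the mutants, and in endothelial cells at 45.6 and 54.3 against 3.15 and 2.08 CPM. In control 1 a single endothelial cell held 43 of the 50 Spock2 UMIs, and in control 2 a single cell held 25 of 29. For Apcdd1 a single cell held 32 of 70 UMIs in control 1 and 33 of 59 in control 2. For Slc7a5 it was 55 of 114 and 43 of 79, and for Foxq1 16 of 39 and 29 of 35, in the same order. With suspected doublets removed the adjusted p of Foxq1 was 0.078, and with DESeq2 0.16. None of the 8 forkhead genes described met this test.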

How the results depend on the processing

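Counts of called genes depended on settings more than the members' values did. Between mutant and control mesenchyme, where none were called, DESeq2 called 48, no filter on low counts 562 and the replicate block 71. The block fits, which take the numbers as pairs, called 2 genes in mural cells (21 without it) and 92 in endothelial cells (9 without it). Other counts in mural cells were 187 with no filter, 38 with stricter cells, 68 with 1 more marker and 6 without cells holding Zic1. Those in endothelial cells were 134 with no filter, 15 with stricter cells, 5 with 1 more marker, 21 without cells holding Pdgfra or Prrx1 and 33 without cells holding an erythroid marker. All retained cells gave 30 with DESeq2 and 10 with no filter. The test of the endothelial against the mesenchyme effect (14) gave 4 with DESeq2, 88 with no filter and 5 without doublets, and the mural one (11) gave 17 and 117 with the first pair. Alx4-positive cells (596) gave 1099 with cells of 1 UMI and 1067 with no filter. Leaving out 1 library at a time gave 3 to 713 calls in mesenchyme, 1 to 233 in mural, 0 to 114 in endothelial and 0 to 410 in all retained cells; 1778 to 2436 for mural against mesenchyme; 3 to 38 and 4 to 19 for the endothelial and mural tests of a different effect; and 318 to 457 (Alx4), 576 to 1074 (Shox2), 1162 to 1661 (Pax9), 950 to 1408 (Osr1), 1055 to 1593 (Osr2), 1823 to 2838 (Pou3f4), 1174 to 1665 (Agtr2) and 1137 to 1985 (Zic1).

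Members' values that changed sign were near 0 or rested on few UMIs, other than Foxp2 in mural cells. Mural Foxp2 rested on 39, 58, 30 and 79 UMIs in control 1, control 2, mutant 1 and mutant 2. In mutant 2, 1 cell held 38 of them. Between mutant and control the values that changed sign were Foxd1 in mesenchyme without Zic1 cells (0.086), Foxp2 in mural cells with stricter cells (-0.33), 1 more marker (-0.95) and no Zic1 cells (-0.85), and Foxc1 in endothelial cells without Slc38a5 cells (0.028). Between classes they were Foxf2 with DESeq2 in mural (-0.050) and endothelial cells (-0.77) and Foxp1 in endothelial against mural cells with no filter (0.012). In the test of endothelial against mesenchyme effects they were Foxc2 (0.060 with 1 more marker, 0.28 without doublets), Foxd1 (-2.35 without doublets) and Foxl2 (0.10 with 1 more marker); in the mural one Foxp1 (-0.20) and Foxp2 (-0.11) with 1 more marker. With cells of 1 UMI they were Foxd1 (-0.071) and Foxl2 (0.05) for Osr1, Foxp2 (-0.20) for Osr2 and Foxf2 (0.23) for Agtr2. The cause was not tested. Over fits that left out 1 library, values between mutant and control ran in mesenchyme from -0.18 to 0.029 for Foxd1, -0.30 to 0.84 for Foxf1 and -0.63 to 0.23 for Foxf2; in mural cells from -0.41 to 1.01 for Foxp2; in endothelial cells from -0.70 to 0.15 for Foxc1 and -0.18 to 0.49 for Foxp1; and in all retained cells from -0.25 to 0.060 for Foxd1, -0.14 to 0.80 for Foxf1 and -0.82 to 0.029 for Foxf2. Between classes they ran from -0.58 to 0.21 for Foxd1 (mural against mesenchyme), -0.28 to 0.80 for Foxc2 and -0.19 to 1.05 for Foxf2 (endothelial against mesenchyme) and -0.25 to 0.15 for Foxp1 (endothelial against mural). For the endothelial test of a different effect they ran from -1.01 to 2.02 for Foxc2, -0.43 to 0.94 for Foxd1 and -1.94 to 1.03 for Foxl2. In marker-positive mesenchyme they ran, for Alx4, from -0.0061 to 0.28 (Foxc1), -0.095 to 0.37 (Foxl2) and -0.055 to 0.21 (Foxp1); for Pax9 from -0.064 to 0.12 (Foxc2), -0.43 to 0.043 (Foxd1) and -0.11 to 0.12 (Foxp1); for Osr1 from -0.37 to 0.071 (Foxc2) and -0.13 to 0.22 (Foxf2); for Osr2 from -0.13 to 0.36 (Foxf1); and for Agtr2 from -0.045 to 0.13 (Foxp1).

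Where leaving out a library left 1 in a group, that library was assumed to vary like the others. Mural cells without any Pdgfra or Prrx1 UMI were not run, as 2 to 10 cells a library remained. With the replicate block, which pairs libraries that share only a number, Foxp2 in mesenchyme (adjusted p = 0.011) and Foxf2 (7.9e-07) and Foxp2 (0.046) in endothelial cells passed. Depth limits Foxc2, Foxf1, Foxf2 and Foxl2 most, which rest on under 40 UMIs in each vessel class.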

Other observations

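Neurons, for which genotypes were not tested (39, 20, 27 and 25 cells in control 1, control 2, mutant 1 and mutant 2), differed widely in Foxd1 and Foxp2 from one library to the next. Foxd1 was at 5.65, 92.7, 66.8 and 64.1 CPM (2, 19, 17 and 11 UMIs), and Foxp2 at 33.9, 273, 3.93 and 52.4 CPM (12, 56, 1 and 9 UMIs). Control 1 was the lowest for Foxd1 and mutant 1 for Foxp2, so neither followed the genotype.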
